A study of Mus musculus with 36 samples.

Results

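Pmepa1 and 9 further genes of transforming growth factor beta (TGF-beta) signalling were described across 36 anterior cingulate cortex (aCC) libraries from female mice. The 10 genes were listed by name, out of 52636 in the table: the ligands Tgfb1, Tgfb2 and Tgfb3, the receptors Tgfbr1 and Tgfbr2, the transducer Smad3, and the feedback genes Pmepa1, Smad7, Skil and Tgif1. Pmepa1 heads the list because it had the smallest p-value of any gene when imipramine was compared with vehicle in wild-type mice, so that contrast is described here with no test, as it is for the other 9.

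The mice were 8 to 11 weeks old, of strain C57BL/6NTac, and either wild type (WT) or heterozygous for a targeted deletion in Brd1, a chromatin reader and scaffold of histone acetyltransferase complexes (Brd1+/-). The deletion was carried in every tissue, and animals were matched by litter. They received subcutaneous saline (vehicle) or the tricyclic antidepressant imipramine at 10 mg/kg (IMN), giving 8 WT vehicle, 10 WT IMN, 9 Brd1+/- vehicle and 9 Brd1+/- IMN libraries. Injections were given on consecutive days, the last on the day the brains were taken, so dosing was brief. All mice had also been through behavioural testing that ended with a forced swim shortly before the brains were taken. Every group, vehicle included, is thus a stressed and handled one. Nothing in the labels ties a library to a named animal, and p-values measure the spread between libraries.

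TGF-beta ligands are secreted in a latent form and, once released, bring type II and type I receptor kinases together. The type I receptor phosphorylates SMAD2 and SMAD3, which join SMAD4 and enter the nucleus. Several genes that this pathway switches on then restrain it. PMEPA1 is a membrane protein that holds SMAD2 and SMAD3 away from the receptor, SMAD7 is an inhibitory SMAD that blocks the receptor, SKIL (SnoN) is a corepressor bound to SMADs, and TGIF1 is a homeodomain corepressor. In brain, TGF-beta made by glia and neurons acts on microglia, astrocytes, blood vessels and synapses.

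All 10 genes were detected in each of the 36 libraries and passed the filter of at least 0.1 TPM, a level scaled for transcript length and library total, in at least 8 libraries. Over all libraries, median levels ran from 36.6 TPM for Smad3, 29.9 TPM for Pmepa1 and 29.1 TPM for Skil down to 1.19 TPM for Tgif1. Neighbours in this order, Smad3 and Pmepa1 and then Pmepa1 and Skil, differed in mean by less than the larger SD over libraries. A step larger than that SD separated Skil from Smad7 (8.49 TPM), which lay close to Tgfbr1 (8.20 TPM) and Tgfb3 (7.79 TPM). The next step led to Tgfb1 (5.12 TPM), Tgfb2 (3.74 TPM) and Tgfbr2 (3.33 TPM), again with overlapping spreads, and the last to Tgif1.

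The tissue was bulk cortex, in which fewer cells of a type and less RNA per cell cannot be told apart. Markers of cortical neurons, astrocytes, microglia, oligodendrocytes, endothelium and mural cells were above 0 in every library, so the labelled tissue held what cortex should hold. The summed oligodendrocyte level was uneven, from 192 to 3570 TPM, and 1 library, Brd1+/- vehicle 6, had a summed striatal marker level of 1525 TPM where no other exceeded 397 TPM. Brd1 checked the labels: WT vehicle held 26.4 ± 3.03 TPM (SD, n = 8), Brd1+/- vehicle 16.8 ± 2.72 TPM (n = 9), WT IMN 23.3 ± 3.43 TPM (n = 10) and Brd1+/- IMN 16.8 ± 2.102 TPM (n = 9). With vehicle all Brd1+/- libraries lay below all WT libraries, as for 0.00391% of all genes. The log2 difference was -0.64 (SE 0.095), with a two-sided exact permutation p = 8.23e-05 over 24310 arrangements. With IMN the levels overlapped, with 5 of 9 Brd1+/- libraries below the lowest WT library. WT IMN 3 (17.9 TPM) lay within the Brd1+/- range of 13.5 to 19.4 TPM. By limma with Benjamini-Hochberg adjustment over all genes, the adjusted p of Brd1 was 0.0620 with vehicle and 0.882 with IMN. The deleted gene itself thus did not pass after adjustment in these fits to TPM, so failing to pass does not show that a gene was unchanged. The paper, with a count model, reported that in aCC only Brd1 passed adjustment between the vehicle groups.

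Pmepa1 (ENSMUSG00000038400, protein coding, minus strand, chr2:173224458-173276533 in GRCm38) was lower with IMN in both genotypes. In WT vehicle its level ran from 33.8 TPM through a median of 35.4 TPM to 42.7 TPM, and in WT IMN from 21.0 through 28.0 to 30.7 TPM. Every WT IMN library thus lay below every WT vehicle library. Means were 36.3 ± 2.98 TPM (SD, n = 8) and 27.6 ± 2.77 TPM (SD, n = 10), so the IMN mean was 76.1% of vehicle, with a log2 fold change of -0.39 (SE 0.068). Of all 25572 genes tested, 0.0156% were lower with non-overlapping groups in this comparison, a share from which nothing is read because the gene was chosen on it.

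**Figure D1:**
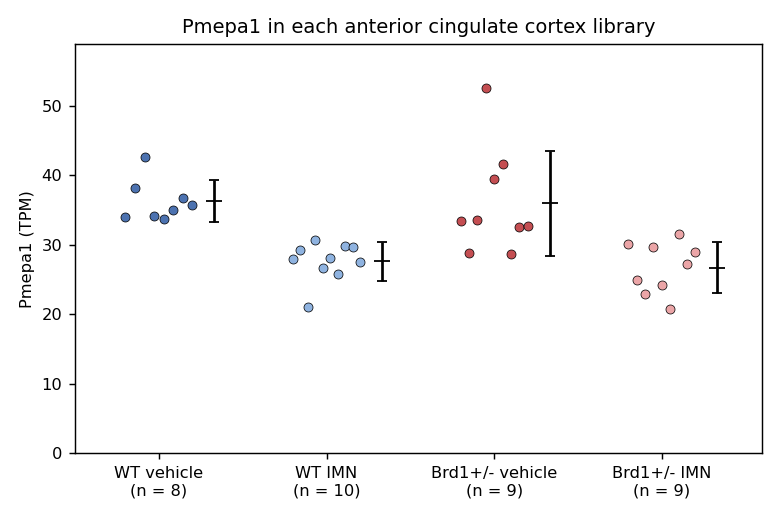
Pmepa1 level in TPM (vertical axis, starting at 0) in each of the 36 libraries, by group. Points are libraries and the bars beside them are the mean and SD. The WT IMN libraries (21.0 to 30.7 TPM) all sit below the WT vehicle libraries (33.8 to 42.7 TPM), while the Brd1+/- groups overlap and 1 Brd1+/- vehicle library reaches 52.6 TPM.

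The Brd1+/- mice share no library with that comparison and gave a test of Pmepa1 in other animals. Brd1+/- vehicle ran from 28.7 through 33.5 to 52.6 TPM and Brd1+/- IMN from 20.7 through 27.3 to 31.5 TPM. The groups overlapped, but all 9 libraries with IMN were under the mean of vehicle, and 7 of 9 vehicle libraries lay above the highest IMN library. Means were 35.9 ± 7.57 and 26.7 ± 3.69 TPM (SD, n = 9 each), 74.3% of vehicle. The log2 fold change was -0.41 (SE 0.11, 95% confidence interval -0.64 to -0.18), with a two-sided exact permutation p = 0.00119 over 48620 arrangements. By limma the unadjusted p was 0.00139, the 68th smallest of 25572 genes. After Benjamini-Hochberg adjustment over all genes it was 0.519, so Pmepa1 did not pass the 0.05 threshold across the transcriptome. Without Brd1+/- vehicle 4, the library at 52.6 TPM, the log2 fold change was -0.34 (limma p = 0.00199), and without Brd1+/- vehicle 6, the library with striatal markers, it was -0.38 (limma p = 0.00332).

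Genotype left no such gap in Pmepa1. The log2 difference of Brd1+/- from WT was -0.03 with vehicle (95% confidence interval -0.25 to 0.18) and -0.05 with IMN (-0.22 to 0.12). The IMN effect in Brd1+/- minus that in WT was -0.02 (SE 0.13, interval -0.28 to 0.25). These use the WT libraries on which Pmepa1 was chosen and are given without a test, and the last interval includes differences of up to 0.28 in size.

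Immediate-early genes, which neurons induce within minutes of activity, had mostly lower values with IMN alongside Pmepa1. Of 13 such genes (Fos, Fosb, Junb, Egr1, Egr2, Egr4, Arc, Npas4, Nr4a1, Ier2, Dusp1, Btg2 and Klf4), all 13 had a log2 fold change below 0 in WT, 9 of them at limma p under 0.05, and 12 were below 0 in Brd1+/-, 8 of them at that level. Over all genes, 4.57% and 2.4% were lower at that level. None of the 13 passed after adjustment in either genotype. The WT values come from the libraries on which Pmepa1 was chosen and only describe them. Their summed level ran from 761 to 1590 TPM in WT vehicle, 676 to 1261 TPM in WT IMN, 1012 to 1638 TPM in Brd1+/- vehicle and 530 to 1215 TPM in Brd1+/- IMN, and none was at 0. With the mean log2 level of these genes as a covariate, the Pmepa1 difference in Brd1+/- was -0.29 (limma p = 0.0493, adjusted p = 0.763) and in WT -0.31. The part of neuronal activity genes in the Pmepa1 difference was not tested beyond these values.

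**Figure D2:**
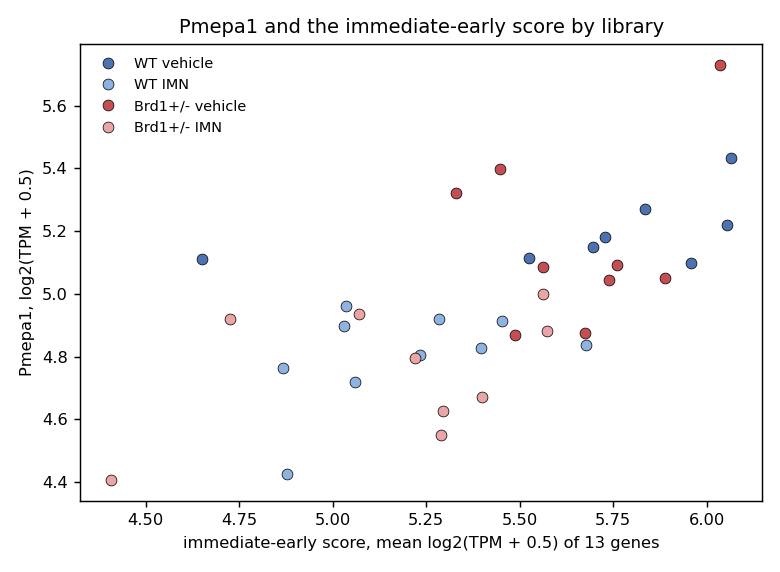
Pmepa1, as log2(TPM + 0.5), on the vertical axis against the immediate-early score, the mean log2(TPM + 0.5) of 13 genes, on the horizontal axis. Each point is 1 library, coloured by group. The library with the lowest score (4.41, Brd1+/- IMN 6) has the lowest Pmepa1 level and Brd1+/- vehicle 4 (6.04) the highest, but WT vehicle 1 has a score of 4.65 with Pmepa1 at 34.1 TPM.

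Among the other feedback genes, Smad7 (ENSMUSG00000025880) ran from 8.02 through 9.34 to 10.9 TPM in WT vehicle and from 6.47 through 8.19 to 9.41 TPM in WT IMN. The groups overlapped, although each of the 10 IMN libraries was under the mean with vehicle, for a log2 fold change of -0.21 (SE 0.086). In Brd1+/- it ran from 7.34 through 8.63 to 9.76 TPM with vehicle and from 6.84 through 7.94 to 9.40 TPM with IMN. There 8 of 9 libraries with IMN were under that of vehicle, with a log2 fold change of -0.09 (SE 0.077, exact permutation p = 0.173), a difference within the spread between libraries.

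Skil (ENSMUSG00000027660) had a lower mean with IMN in Brd1+/-, where vehicle ran from 23.2 through 29.7 to 34.9 TPM and IMN from 20.4 through 26.1 to 29.6 TPM. The groups overlapped, and 8 of 9 libraries with IMN were under the mean of vehicle. The log2 fold change was -0.16 (SE 0.076, exact permutation p = 0.0388), and the limma p of 0.0444 became 0.887 after adjustment. In WT it was -0.10 (SE 0.087), with 30.8 ± 3.48 TPM (SD, n = 8) against 28.9 ± 3.95 TPM (SD, n = 10). Tgif1 was the lowest and most variable feedback gene, at group means of 1.03 to 1.34 TPM, and its log2 fold changes with IMN were -0.20 (SE 0.17) in WT and -0.05 (SE 0.20) in Brd1+/-.

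Of the 10 genes, 2 (Pmepa1 and Skil, both lower) were at limma p under 0.05 with IMN in Brd1+/-, where 5.52% of all genes were, and Pmepa1 alone was at p under 0.01, where 1.22% of all genes were. None passed after adjustment, as 0.00782% of all genes did. The Skil value was at p under 0.05 in 8 of 13 other settings and in 6 of 18 fits without 1 library, namely without vehicle 4 or 7 or IMN 3, 4, 5 or 8. With the immediate-early score as a covariate it was -0.097 (limma p = 0.335). Values were below 0 for 6 of the 10 genes (47.5% of all genes), with a median of -0.06 against 0.01 over all genes.

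**Figure D3:**
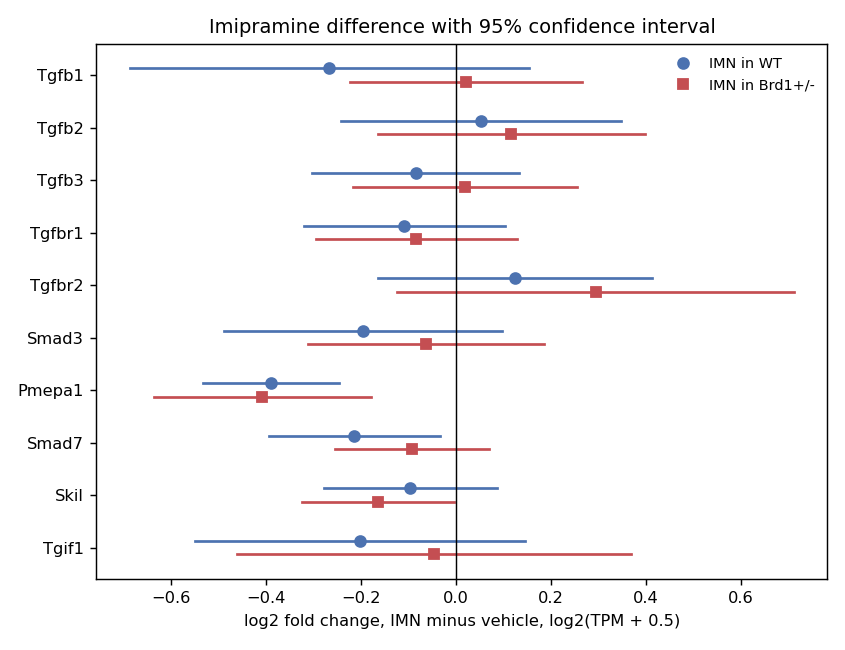
Log2 fold change of IMN minus vehicle (horizontal axis, on log2(TPM + 0.5)) for the 10 genes, in WT (circles) and Brd1+/- (squares), with 95% confidence intervals as lines. The Pmepa1 estimates lie at -0.39 and -0.41. In Brd1+/- the intervals of Pmepa1 and Skil lie below 0, and those of the other 8 genes include it.

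The transducer Smad3 (ENSMUSG00000032402) was the most abundant of the 10 genes and spread widely within groups. It ran from 22.5 through 41.8 to 48.1 TPM in WT vehicle, 26.2 through 33.05 to 50.1 TPM in WT IMN, 28.9 through 35.99 to 43.0 TPM in Brd1+/- vehicle and 25.1 through 35.1 to 47.5 TPM in Brd1+/- IMN. All 4 groups overlapped. The log2 fold change with IMN was -0.20 (SE 0.14) in WT and -0.06 (SE 0.12, exact permutation p = 0.615) in Brd1+/-.

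The ligands and receptors gave no difference with IMN larger than the spread between libraries. In Brd1+/- the log2 fold change was 0.02 for Tgfb1 (SE 0.12, exact permutation p = 0.850), 0.12 for Tgfb2 (SE 0.13, p = 0.386) and 0.02 for Tgfb3 (SE 0.11, p = 0.866). The type I receptor gene Tgfbr1 gave -0.08 (SE 0.10, exact permutation p = 0.397). The type II receptor gene Tgfbr2 had the largest positive value, 0.29 (SE 0.20, exact permutation p = 0.180). Its level ran from 2.64 through 3.37 to 8.05 TPM with IMN and from 2.17 through 3.32 to 6.24 TPM with vehicle, so the medians nearly coincided and a few IMN libraries were high. In WT the 5 values ran from -0.27 (SE 0.20) for Tgfb1 to 0.12 (SE 0.14) for Tgfbr2.

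**Figure D4:**
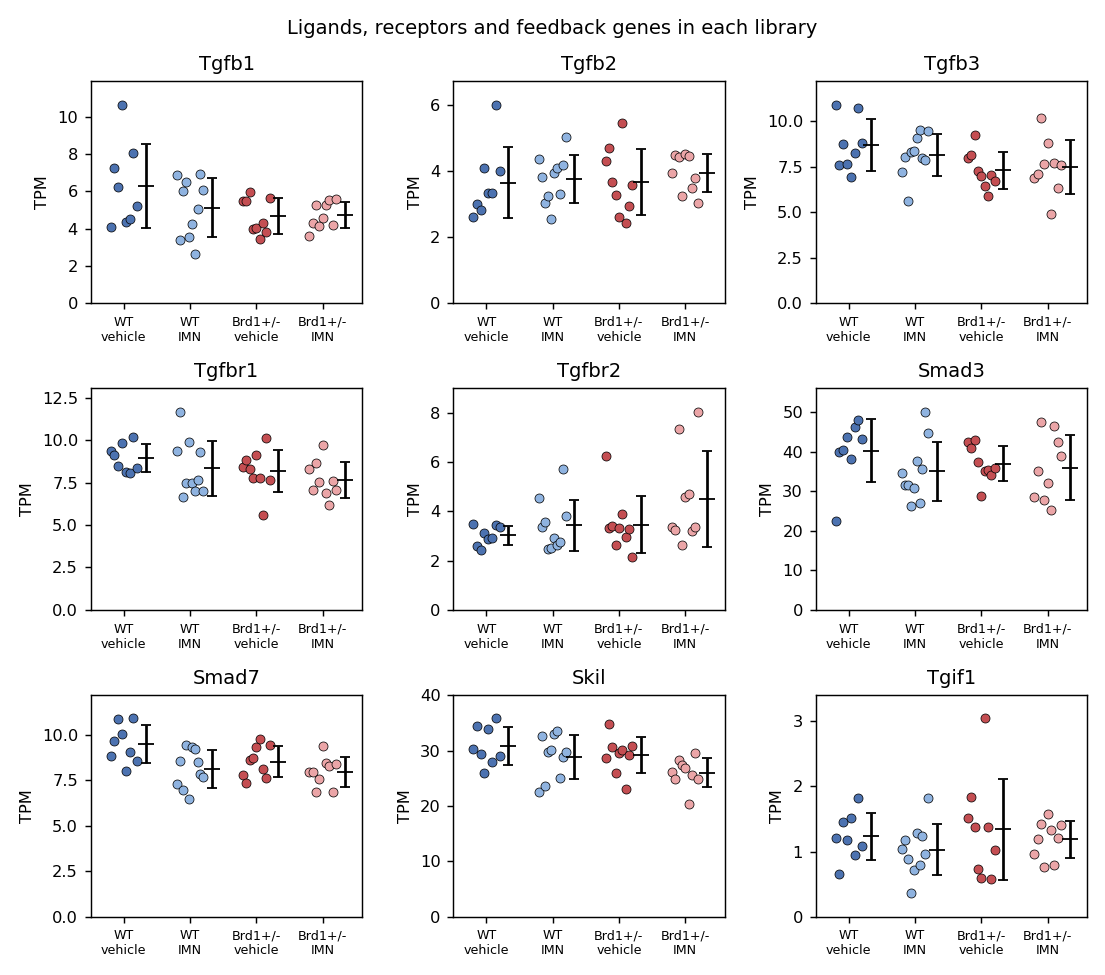
Level in TPM (vertical axes, each starting at 0) of the other 9 genes in each library of the 4 groups. Points are libraries and the bars beside them are the mean and SD. Groups overlap in every panel, and single libraries stand apart for Smad3 (22.5 TPM in WT vehicle), Tgfb2 (6.02 TPM in WT vehicle) and Tgfbr2 (6.24 TPM in Brd1+/- vehicle).

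Between genotypes with vehicle, the ligand Tgfb3 (ENSMUSG00000021253) had a lower mean in Brd1+/-. It ran from 6.91 through 8.48 to 10.9 TPM in WT and from 5.87 through 7.05 to 9.26 TPM in Brd1+/-, with 8 of 9 Brd1+/- libraries below the WT mean. The groups overlapped, the log2 difference was -0.23 (SE 0.10, exact permutation p = 0.0332), and the limma p of 0.0383 became 1.00 after adjustment. That p was under 0.05 in 10 of 13 other settings and in 8 of 17 fits without 1 library, namely without WT vehicle 2, 4, 5 or 6 or Brd1+/- vehicle 1, 2, 3 or 4, and array weights gave a log2 difference of -0.14 (limma p = 0.158). Tgfb1, a ligand that microglia express, had a larger but less certain difference. It ran from 4.08 through 5.72 to 10.7 TPM in WT and from 3.42 through 4.29 to 5.99 TPM in Brd1+/-, with all 9 Brd1+/- libraries below the WT mean (log2 difference -0.35, SE 0.17, exact permutation p = 0.0644). Smad7 differed by -0.15 (SE 0.082, exact permutation p = 0.0587).

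Of the 9 genes tested in that comparison 1 was at limma p under 0.05, where 3.75% of all genes were. With IMN in both genotypes none of the 9 was at that level (3.23% of all genes), none had an exact permutation p under 0.05, and none passed after adjustment. The values nearest to it were -0.14 for Skil (SE 0.083, exact permutation p = 0.102) and 0.30 for Tgfbr2 (SE 0.19, exact permutation p = 0.149). The Tgfb3 difference there was -0.13 (SE 0.11, exact permutation p = 0.267).

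The wider pathway was taken from 81 further genes of textbook lists: 19 ligands and latency proteins, 11 receptors, 7 SMADs, 20 inhibitors and feedback genes and 24 targets. With IMN in Brd1+/-, 2 of 81 were at limma p under 0.01 (1.22% of all genes), both lower, and 6 were at p under 0.05 (5.52% of all genes), 5 of them lower. With IMN in WT, 3 of 81 were at p under 0.01 (1.58% of all genes), all lower, and 11 at p under 0.05 (6.6% of all genes), 10 of them lower. None passed after adjustment in either. The WT libraries are those on which Pmepa1 was chosen. The WT counts and p-values, here and below, therefore only describe and lend no independent support. The median log2 fold change of the 81 was 0.01 in Brd1+/- and -0.07 in WT, against 0.01 and -0.01 over all genes.

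Inhba, Klf10 and Acvr1 were at limma p under 0.05 and lower with IMN in both genotypes, where 0.583% of all genes were. Inhba, which encodes the activin A subunit and is induced by neuronal activity, ran from 3.23 through 5.43 to 6.32 TPM in WT vehicle and from 1.72 through 3.35 to 4.75 TPM in WT IMN. In Brd1+/- it ran from 2.50 through 4.62 to 6.05 TPM with vehicle and from 0.976 through 2.87 to 6.63 TPM with IMN. The groups overlapped in both genotypes. On the log2 scale IMN minus vehicle was -0.58 in WT (SE 0.16, limma p = 0.00180, adjusted p = 0.475) and -0.65 in Brd1+/- (SE 0.23, limma p = 0.01001, adjusted p = 0.806).

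Klf10 (TIEG1), a zinc finger factor induced early by TGF-beta, averaged 30.7 ± 2.08 TPM in 8 WT vehicle and 23.9 ± 5.08 TPM in 10 WT IMN libraries (SD). In Brd1+/- it stood at 28.0 ± 4.15 and 21.5 ± 4.80 TPM (SD, n = 9 each). Its log2 fold changes, -0.39 in WT (SE 0.12, limma p = 0.00395) and -0.40 in Brd1+/- (SE 0.13, limma p = 0.00743), were close to those of Pmepa1, and neither passed after adjustment (0.542 and 0.802). Acvr1, a type I receptor for bone morphogenetic proteins and activins, stood at 17.7 ± 2.07 TPM (SD, n = 8) and 15.1 ± 2.02 TPM (SD, n = 10) in WT, and at 17.2 ± 2.03 and 14.0 ± 2.31 TPM (SD, n = 9 each) in Brd1+/-. Its log2 fold changes were -0.23 (SE 0.088, limma p = 0.0186) and -0.30 (SE 0.099, limma p = 0.00779).

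**Figure D5:**
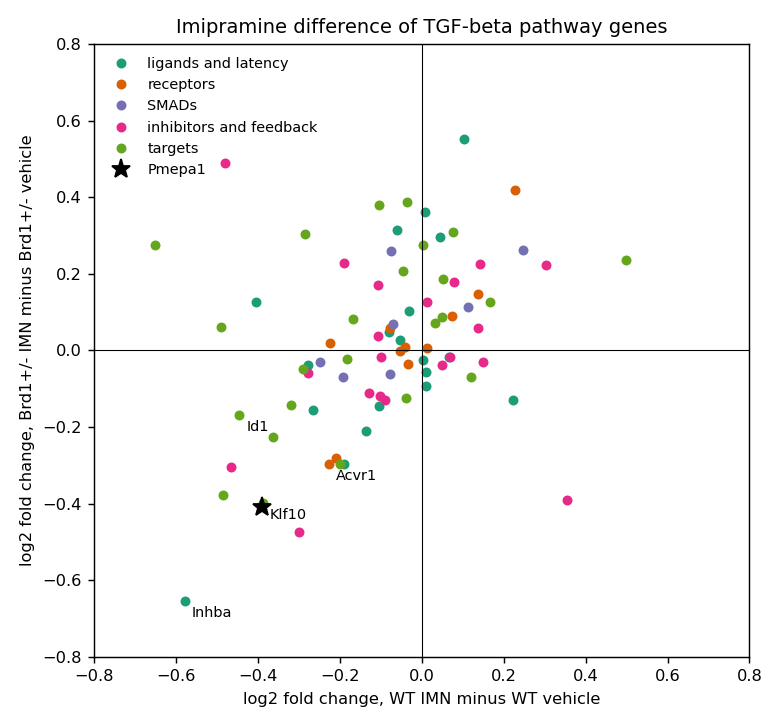
Log2 fold change with IMN in WT (horizontal axis) and in Brd1+/- (vertical axis) of 81 pathway genes, coloured by role, with Pmepa1 as a star. Each point is 1 gene. Inhba, Klf10, Acvr1 and Pmepa1 lie in the lower left, where both differences are below 0. Across genes 50 of 81 have the same sign in both comparisons, against 57.7% of all genes tested.

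For Inhba and Acvr1, the 250 bases before a RefSeq transcript start (GRCm38.p6) are shown. Both genes were lower with IMN in both genotypes, and they are those of this trio with an entry among the promoters used. Capitals mark AGAC or its reverse complement GTCT, the core of the element that SMAD3 and SMAD4 bind, searched on both strands. The Inhba window lies on the plus strand at chr13:16011601-16011850 and the Acvr1 window on the minus strand at chr2:58566829-58567078. The Acvr1 window is inside the annotated span of the gene (chr2:58388644-58567157), whose outermost start lies further upstream.
Inhba: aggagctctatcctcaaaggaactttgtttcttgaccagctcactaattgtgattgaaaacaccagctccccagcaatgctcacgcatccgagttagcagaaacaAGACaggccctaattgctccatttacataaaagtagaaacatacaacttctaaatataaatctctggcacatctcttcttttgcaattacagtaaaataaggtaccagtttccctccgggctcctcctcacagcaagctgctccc
Acvr1: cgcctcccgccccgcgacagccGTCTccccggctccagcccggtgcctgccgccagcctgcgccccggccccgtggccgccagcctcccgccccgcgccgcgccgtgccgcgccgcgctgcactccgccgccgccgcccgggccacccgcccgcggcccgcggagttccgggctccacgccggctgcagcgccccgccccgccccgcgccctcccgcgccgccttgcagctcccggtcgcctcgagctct
Each window held 1 match to the core and none to the longer CAGAC. Of 32851 promoter windows of the same length, 82.9% held the 4-letter core and 42.2% held CAGAC, which contains that core. Of the 10 genes, 6 had an entry, with 11 windows, and 6 of those windows held CAGAC. Tgif1 alone had 5 of the windows, with 4 matches, so the windows are not separate genes and the count is not read against the share above. Pmepa1, Smad7, Skil and Tgfb3 had no window.

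Id1, a helix-loop-helix inhibitor that bone morphogenetic proteins induce, was at limma p under 0.01 in WT only. Its log2 fold change was -0.44 in WT (SE 0.15, p = 0.00780) and -0.17 in Brd1+/- (SE 0.16, limma p = 0.313), and the difference between these was 0.28 (SE 0.23, limma p = 0.234), so the genotypes were not shown to differ.

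Ldlrad4, the paralogue of Pmepa1 with a like action on SMADs, gave IMN values above 0 in both genotypes, neither at p under 0.05. In WT the means were 27.6 ± 3.19 TPM with vehicle and 28.0 ± 3.89 TPM with IMN, and 25.9 ± 5.08 and 28.0 ± 3.71 TPM in Brd1+/- (SD). IMN minus vehicle was 0.01 on the log2 scale in WT (SE 0.087) and 0.13 (SE 0.12) in Brd1+/-. The signal transducers Smad2 (-0.25, SE 0.12, limma p = 0.0534, in WT and -0.03, SE 0.13, in Brd1+/-) and Smad4 (-0.07, SE 0.085, and 0.07, SE 0.077), the corepressor Ski (-0.09, SE 0.15, and -0.13, SE 0.088) and the coreceptor Tgfbr3 (0.23, SE 0.25, and 0.42, SE 0.22) gave no IMN difference at p under 0.05.

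The count in WT was sensitive to 1 library and rose without it. WT vehicle 1 had the lowest immediate-early score of its group (4.65) and the lowest Smad3 level. It also had the highest mean log2 level of oligodendrocyte markers in its group (7.25, the others 3.44 to 5.83). Its level of the cortical neuron marker Cux2 (9.86 TPM) was the lowest of all 36 libraries. Which of these bears on the count was not tested. Without WT vehicle 1, 11 of the 81 genes were at limma p under 0.01, all lower with IMN. Over all genes 3.09% were at that level in this fit, against 1.58% with all libraries, and 32 passed after adjustment, against 0. Among the 11 were Cdkn1a, the cell-cycle inhibitor p21 (log2 fold change -0.64, SE 0.12, adjusted p = 0.0493, the only one of the 81 to pass), Inhba (-0.66, SE 0.16), Junb (-0.55, SE 0.15), Id1 (-0.53, SE 0.14) and Acvr1 (-0.26, SE 0.089). With all WT libraries kept, Cdkn1a was at -0.48 (limma p = 0.0108) and Junb at -0.36 (limma p = 0.0978). Neither passed after adjustment there, so the Cdkn1a result rests on leaving out that library. Without WT IMN 9 the count was 5 (2.03% of all genes). In Brd1+/- leaving out 1 library gave counts from 0 to 3 (0.942% to 1.5% of all genes). With the immediate-early score as a covariate the counts were 0 in WT (1.06% of all genes) and 1 in Brd1+/- (1.49%). Junb is also 1 of the immediate-early genes.

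Between genotypes few of the 81 genes had a small p-value. With vehicle 1 of 81 genes was at limma p under 0.05 (3.75% of all genes) and none at p under 0.01 (0.7% of all genes). This was Zeb1, a repressor of epithelial genes, which was higher in Brd1+/- at 34.3 ± 5.00 against 30.0 ± 1.86 TPM (log2 difference 0.18, SE 0.081, limma p = 0.0406). The next smallest p-values were those of Chrd, a bone morphogenetic protein antagonist (-0.24, SE 0.12, limma p = 0.0605), and Timp1, a metalloproteinase inhibitor (-0.50, SE 0.26, limma p = 0.0717). With IMN the 1 gene at p under 0.05 (3.23% of all genes) was Fstl3, an activin antagonist, at 1.55 ± 1.36 TPM in Brd1+/- and 2.52 ± 1.01 TPM in WT (log2 difference -0.78, SE 0.35, limma p = 0.0364), and it was at 0 in a Brd1+/- library. Smad4 (0.13, SE 0.072, limma p = 0.0904) and the endothelial coreceptor Eng (0.16, SE 0.11, limma p = 0.142) followed. None of these passed after adjustment.

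The 5 genes whose levels followed Pmepa1 most closely within groups were in none of the pathway lists. Over the 36 libraries, after each group's mean was subtracted and among 17715 genes averaging 1 TPM or more, the highest Pearson r were those of Gm13375 and Pld3 (0.678 each), Syn1 (0.674), Flot2 (0.673) and Ppp2r1a (0.663). With group means left in, they were Pacsin1 (0.760), Mvd (0.756), Dnajb5 (0.745), Trib1 (0.740) and Klf10 (0.737). Within groups the pathway genes Gdf1 and Klf10 ranked 32nd (r = 0.581) and 52nd (r = 0.561), and Smad7 ranked 882nd (r = 0.370). These values only describe the libraries. All genes of a library share its depth, punch composition and activity state, which can differ between libraries, so genes are not independent of each other.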

How the data were processed

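Total RNA from right aCC punches was sequenced by the submitters. Per the labels and the study's methods, the reads (single end, BGISEQ-500) were trimmed with Trimmomatic, checked with FastQC, aligned to GRCm38 with HISAT2 2.1.0 and quantified with StringTie 1.3.4, and the authors deposited 1 table of TPM values, levels scaled for transcript length and library total. Column totals were 999727 to 999889 TPM, so depth cannot be recovered and no counting interval is given. Values of different libraries were compared without further scaling.

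All 36 columns matched a labelled sample. Fold changes are differences of log2(TPM + 0.5), which understates changes of low genes. limma 3.58.1 (R 4.3.3; empirical Bayes with intensity trend, two-sided) was fitted to the libraries of each pair of groups over 25572 genes (at least 0.1 TPM in at least 8 of 36 libraries), with Benjamini-Hochberg adjustment over all of them. The difference between IMN effects was fitted on all 36 libraries. Exact permutation tests of single genes were two-sided and used all arrangements of the libraries. TPM are not counts, so no count model was run. The fit was first tried on simulated data with known changes. These were all larger than the Pmepa1 difference, so recovery of changes of that size was not tested. Alternatives were other pseudocounts, filters, scalings, weights, covariates, a replicate block and leaving out each library.

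Members, gene lists and tests were chosen with earlier results of these data known. Named genes were the members, Brd1, pathway genes at p under 0.01 or with the 3 smallest p in a comparison, 7 pathway genes fixed by name (1 is not reported here), and the 5 genes closest to Pmepa1. Gdf1 and genes named in fits without 1 library were chosen after their values were seen.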

Additional observations from a re-analysis of the deposited data

Results flagged for a closer look

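Single libraries stood apart from the rest of their group in 4 of the 40 combinations of gene and group checked, by Dixon's test at the 95% level, which chance alone would mark in about 1 of 20. Pmepa1 in WT IMN 3 was 21.0 TPM, where the others of that group lay between 25.8 and 30.7 TPM. Smad3 in WT vehicle 1 was 22.5 TPM against 38.1 to 48.1 TPM. Tgfb2 in WT vehicle 7 was 6.02 TPM against 2.62 to 4.09 TPM. Tgfbr2 in Brd1+/- vehicle 1 was 6.24 TPM against 2.17 to 3.90 TPM. The cause of these values was not tested.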

How the results depend on the processing

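Over 54 results and 1834 alternatives, 1768 stayed on their side of the threshold or within the limit set, and 18 moved further. Signs changed in 48 of 868 alternatives of tested values and in 20 of 842 of untested ones. The Pmepa1 difference with IMN in Brd1+/- ran from -0.42 to -0.29 under other settings and from -0.45 to -0.34 when 1 library was left out, with limma adjusted p from 0.257 to 0.901. In WT it ran from -0.40 to -0.31 and from -0.41 to -0.35. The tested values that changed sign passed no threshold. Untested ones included Pmepa1, from -0.03 to 0.0014 or 0.0022 between genotypes with vehicle (without Brd1+/- vehicle 2 or 7), and the difference of its IMN effects, from -0.02 to 0.039 with striatal and oligodendrocyte scores, 0.0093 with the endothelial score and up to 0.052 without 1 library (Brd1+/- vehicle 4, 5 or 6 or IMN 3 or 6). With striatal and oligodendrocyte scores as covariates the tested ones were Tgif1 (0.11), Smad3 (0.015) and Tgfb1 (-0.017) with IMN in Brd1+/-, Tgif1 (-0.16) and Tgfb2 (-0.089) between genotypes with vehicle, and Smad7 (0.0029) with IMN. Array weights gave -0.033 for Tgfb1 and -0.015 for Tgfb3 with IMN in Brd1+/-, and -0.0084 for Tgif1 with vehicle. Quantile normalization gave -0.0036 for Tgfb1, a pseudocount of 0.1 gave -0.0067 for Tgif1 with vehicle, the endothelial score gave -0.035 for Smad3 between genotypes with IMN, and the immediate-early score gave 0.22 for Smad3 with IMN in Brd1+/- (0.12 in WT). Leaving out 1 library, values ran from -0.13 to 0.084 for Tgif1, -0.027 to 0.064 for Tgfb1 and -0.037 to 0.086 for Tgfb3 with IMN in Brd1+/-, from -0.12 to 0.098 for Tgif1 and -0.065 to 0.10 for Tgfb2 between genotypes with vehicle, and from -0.057 to 0.00082 for Smad7 and -0.020 to 0.094 for Smad3 between genotypes with IMN. Counts of the 81 pathway genes at p under 0.01 with IMN moved in Brd1+/- from 2 to 1 with the immediate-early score and to 1 with the replicate block, and in WT from 3 to 0 with that score and to 8 with array weights, where 3.05% of all genes were at that level against 1.58%. Leaving out 1 library gave 0 to 3 in Brd1+/-, 2 to 11 in WT, and 0 to 3 between genotypes with vehicle, where 3 came without WT vehicle 1 (1.5% of all genes against 0.7%) and 1 without Brd1+/- vehicle 4. In Brd1+/- the count was 0 without vehicle 3, 4 or 9 or IMN 1, and 1 without vehicle 1 or 5 or IMN 2, 4 or 6. The causes were not tested. Replicate numbers gave no clear sign of pairing: same-numbered libraries correlated between -0.26 and 0.26 in their deviations. The value was above 0.1 in 1 of 9 pairs between genotypes with IMN and in none elsewhere. The labels give no litter, so pairing by litter could not be checked. With the replicate block Pmepa1 was -0.41 in Brd1+/- (limma p = 0.00405) and -0.40 in WT. TPM keep no depth, so its effect on low genes such as Tgif1 is unknown.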
